A study of Mus musculus with 2 samples.

Results

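The DNA methylation writers and erasers described here are 9 genes: the methyltransferases Dnmt1, Dnmt3a and Dnmt3b, the methyltransferase cofactor Dnmt3l, the hemimethylated DNA binding genes Uhrf1 and Uhrf2, and the dioxygenases Tet1, Tet2 and Tet3. They were chosen by name, and all 9 were found among the 43346 genes of the tables by identifier. Testis polyA mRNA was sequenced for 1 mouse, an adult male at 10 weeks of age of the inbred strain C57BL/6J. It was sequenced as 2 technical replicate libraries, of which replicate 2 was made later. No treatment or second condition was part of the series, so no value has a replicate across animals, and an SD describes 2 technical libraries. Summed over genes, the estimated reads (expected counts) came to 20675551 in replicate 2 and 31995377 in replicate 1.

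Methylation of cytosine in CpG dinucleotides is copied after replication by Dnmt1, which Uhrf1 guides to hemimethylated sites, and is set anew by Dnmt3a and Dnmt3b, with Dnmt3l as a catalytically inactive partner in germ cells. Tet enzymes oxidize 5-methylcytosine, a step toward its removal. In male mouse germ cells new methylation is laid down before birth in prospermatogonia, whereas the adult testis holds dividing spermatogonia, spermatocytes in meiosis and spermatids, beside Sertoli, Leydig and other somatic cells. Several of these genes have alternative promoters. Mouse Dnmt1 has a somatic start, an oocyte start upstream of it and a start used in pachytene spermatocytes downstream of it, and Dnmt3a has an internal start that gives a shorter protein, known as Dnmt3a2.

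Sequences just upstream of alternative starts are shown because the libraries differed in how they divided Dnmt1 and Dnmt3a among starts, and because nearly all Dnmt3l reads fell to an internal start. Each line gives the 80 bases before a start, 5′ to 3′ along the gene, from the RefSeq promoter windows on GRCm38.p6, with CpG dinucleotides in capitals. Each start shown coincides with an annotated GENCODE M21 start, except the upstream Dnmt3a start, which lies 50 bases before that of Dnmt3a-201.
Dnmt1-202 (chr9:20959889-20959968, minus strand): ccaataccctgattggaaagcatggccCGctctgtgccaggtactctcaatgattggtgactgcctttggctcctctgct
Dnmt1-201 (chr9:20952980-20953059, minus strand): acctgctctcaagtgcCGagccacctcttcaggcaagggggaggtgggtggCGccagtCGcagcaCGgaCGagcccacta
Dnmt1-203 (chr9:20952624-20952703, minus strand): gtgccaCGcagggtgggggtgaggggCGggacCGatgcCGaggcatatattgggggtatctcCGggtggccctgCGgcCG
Dnmt3l-205 (chr10:78042207-78042286, plus strand): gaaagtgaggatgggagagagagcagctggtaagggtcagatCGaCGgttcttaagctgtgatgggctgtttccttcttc
Dnmt3l-201 (chr10:78049762-78049841, plus strand): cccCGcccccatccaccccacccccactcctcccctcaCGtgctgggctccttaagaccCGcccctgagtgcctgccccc
Dnmt3l-202, Dnmt3l-203 and Dnmt3l-206 (chr10:78055255-78055334, plus strand): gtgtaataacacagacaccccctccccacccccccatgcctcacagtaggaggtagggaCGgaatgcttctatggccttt
Dnmt3a, upstream start (chr12:3806900-3806979, plus strand): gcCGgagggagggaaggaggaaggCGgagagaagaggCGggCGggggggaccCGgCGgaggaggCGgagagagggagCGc
Dnmt3a-203 (chr12:3891664-3891743, plus strand): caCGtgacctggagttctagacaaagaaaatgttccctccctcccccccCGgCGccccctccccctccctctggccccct

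The 3 Dnmt1 starts differ in CpG content. Over the whole 300 base window, which reaches from 250 bases before to 50 bases after the start, the farthest upstream start (Dnmt1-202) had 2 CpG, the middle start (Dnmt1-201) 12 and the downstream start (Dnmt1-203) 33. The median over all 32851 windows was 7 CpG. The upstream Dnmt3a window held 46 CpG and the internal one 18. The Dnmt3l windows held 6 (Dnmt3l-205), 4 (Dnmt3l-201) and 3 (Dnmt3l-202, Dnmt3l-203 and Dnmt3l-206). On either strand the Sp1-type box GGGCGG was found in the window of Dnmt1-203, in both Dnmt3a windows and in those of Dnmt3l-205 and Dnmt3l-201, and it occurs in 35.7% of all windows. The box CCAAT was found at Dnmt1-202 and Dnmt1-203 only among these 8 windows, against 37.4% of all. Neither TATAAA nor TGACGTCA was found in any of the 8, against 13.6% and 1.79% of all windows. None of these 4 motifs contains another, and a match is only a description of the letters.

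By mean TPM, which scales for transcript length and depth, the order was Uhrf1, Uhrf2, Dnmt1, Dnmt3l, Dnmt3a, Dnmt3b, Tet3, Tet2 and Tet1. At a limit of 1 TPM in both libraries, 6 of the 9 genes were detected, all but the Tet genes. Tet3 passed the limit in replicate 2 only (2.01 against 0.80 TPM). Tet2 passed it in replicate 1 only (1.08 TPM, against 0.82 in replicate 2), so their place depends on the limit. The share of all genes detected by this rule was 31.8%, and of protein-coding genes 54.6%. The 3 catalytically active methyltransferase genes summed to 29.93 TPM in replicate 2 and 8.44 TPM in replicate 1, the Uhrf genes to 55.96 and 37.95 TPM, and the Tet genes to 3.25 and 2.25 TPM, in the same order of libraries. In a bulk tissue, fewer cells of a type and less RNA per cell cannot be told apart.

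**Figure D1:**
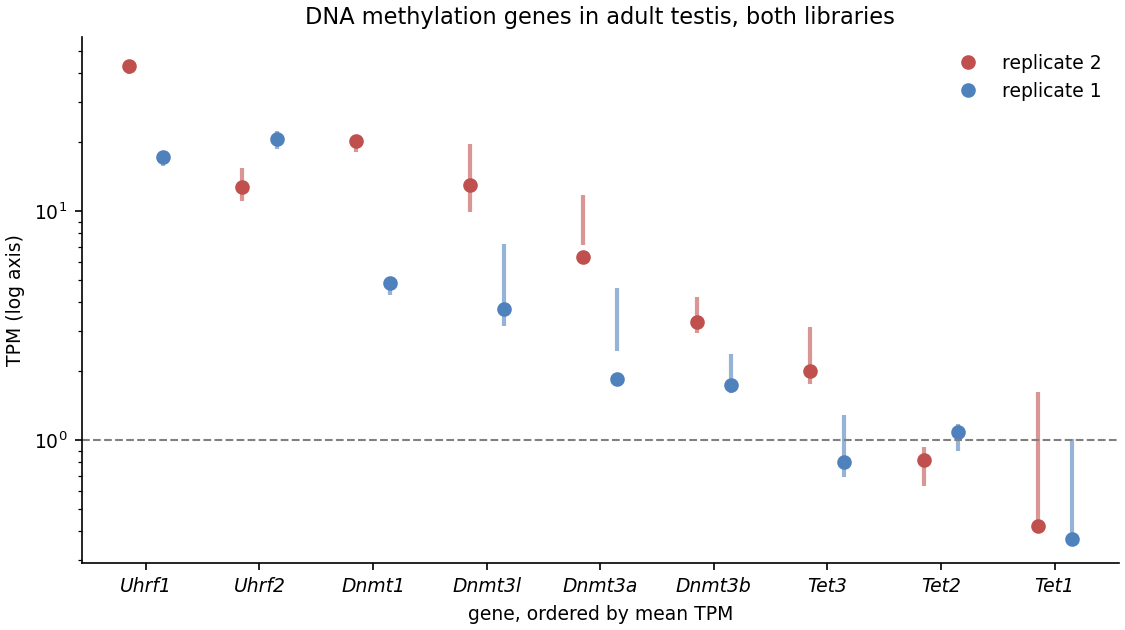
TPM (log axis) of the 9 genes in replicate 2 and replicate 1, ordered by mean TPM. Points are the deposited TPM, vertical lines the deposited intervals, whose level is not stated, and the dashed line marks 1 TPM. Uhrf1 and Dnmt1 lie higher in replicate 2, Uhrf2 lies higher in replicate 1, and Tet1 lies below 1 TPM in both.

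Among the writers, the maintenance methyltransferase gene Dnmt1 (ENSMUSG00000004099.11, chromosome 9, 20907209 to 20959888, minus strand, mm10) had 20.36 TPM in replicate 2 and 4.86 TPM in replicate 1 (12.6 ± 11.0, SD, n = 2 technical libraries). These values rest on 1484 and 595 estimated reads. Its level lay at percentile 71.4 of protein-coding genes in replicate 2 and 60.1 in replicate 1. The libraries thus differed by more than a factor of 3 on TMM-scaled counts, with a ratio of 3.18 for replicate 2 over replicate 1 (95% interval 2.89 to 3.50, counting error only).

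Both de novo methyltransferase genes were lower than Dnmt1. Dnmt3a (ENSMUSG00000020661.11, chromosome 12, 3806007 to 3914443) had 6.28 TPM in replicate 2 and 1.84 TPM in replicate 1, from 459 and 299 reads (4.06 ± 3.14, SD, n = 2 technical libraries). Dnmt3b (ENSMUSG00000027478.11, chromosome 2, 153649450 to 153687730) had 3.29 TPM in replicate 2 and 1.74 TPM in replicate 1, from 176.75 and 149.34 reads (2.52 ± 1.10). For Dnmt3a the deposited interval, 7.11 to 11.8 TPM in replicate 2 and 2.44 to 4.61 TPM in replicate 1, did not include the TPM itself. Its deposited posterior mean was higher, at 9.37 TPM in replicate 2 and 3.46 TPM in replicate 1. For Dnmt1 in replicate 2 the TPM likewise lay outside its interval of 18.1 to 20.1 TPM.

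Dnmt1 was higher than Dnmt3a in both libraries, by 3.24-fold in replicate 2 (interval 2.92 to 3.61) and 2.64-fold in replicate 1 (2.29 to 3.05). Dnmt3a was above Dnmt3b in replicate 2, at 1.91-fold (1.60 to 2.28), whereas in replicate 1 the ratio was 1.06 with an interval of 0.868 to 1.30 that includes 1. On posterior mean TPM the Dnmt3a to Dnmt3b ratio excluded 1 in both libraries, with a mean log2 ratio of 1.10. On that measure Dnmt1 stayed above Dnmt3a, but the mean log2 ratio was 0.73, against 1.55 on TPM. All such intervals are exact (Clopper-Pearson) on length-scaled counts, and a pair was called when both libraries excluded 1 on the same side.

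The rodent gene Dnmt3c, a duplicate of Dnmt3b that methylates young retrotransposons in fetal male germ cells, lies next to Dnmt3b on chromosome 2. Its annotated transcript aligned to Dnmt3b-209 over 2098 bases at 89.3% identity. Dnmt3c had 1.23 TPM in replicate 2 and 0.22 TPM in replicate 1, from 34.25 and 9.66 reads. Reads can be shared between the pair, so their division is an estimate. The deposited posterior SD of each was 1.00 reads in replicate 2 and 1.01 in replicate 1. That is small beside the Dnmt3b reads, 176.75 in replicate 2 and 149.34 in replicate 1, and weighs more on the few Dnmt3c reads. Trdmt1, a relative of the DNA methyltransferases that methylates tRNA, had 8.29 TPM in replicate 2 and 20.35 TPM in replicate 1.

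Dnmt3l (ENSMUSG00000000730.9, chromosome 10, 78041947 to 78063622) had 12.98 TPM in replicate 2 and 3.73 TPM in replicate 1 (8.36 ± 6.54, SD, n = 2 technical libraries). Most of its reads were assigned to short transcripts, of 1113 to 1452 bases. These levels rest on 159 and 83 reads, fewer than for Dnmt3a in either library. Per length Dnmt3a was 0.484 times Dnmt3l in replicate 2 (0.403 to 0.583) and 0.493 times in replicate 1 (0.386 to 0.637). Dnmt3b was 0.253 times Dnmt3l in replicate 2 (0.204 to 0.316) and 0.466 times in replicate 1 (0.354 to 0.616). Both pairs were called lower, but on reads without length scaling both turned round, with mean log2 ratios of 1.69 and 0.50.

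Nearly all Dnmt3l reads were assigned to transcripts that begin at the internal start, 13388 bases into the gene. That start, shared by Dnmt3l-202, Dnmt3l-203 and Dnmt3l-206, held 150.43 reads in replicate 2, 94.6% of the gene's reads, and 83 reads in replicate 1, all of them. These and the other divisions among transcripts are estimated assignments of shared reads, so a value of 0 is an estimate and not an observed absence. M21 annotates an open reading frame of 126 residues for each of these 3 transcripts, against 421 residues for the full-length protein. Transcripts that code for the full-length protein held 5.54 reads in replicate 2 and 0 in replicate 1. The 3 internal transcripts were divided differently. Dnmt3l-206 had 76.11 reads in replicate 2, nearly level with the 74.32 of Dnmt3l-202, and 3.35 in replicate 1. Dnmt3l-203 had 0 reads in replicate 2 and led in replicate 1 with 51.2. In TPM the internal start held 71.8% of the gene in replicate 2 and 100% in replicate 1. The difference lay mostly in a noncoding transcript of 210 bases, Dnmt3l-204, to which 2 reads gave 3.09 TPM in replicate 2. By the posterior mean, the internal start held 62.5% in replicate 2 and 71.4% in replicate 1.

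Dnmt1 was divided among 3 starts in replicate 2 and assigned mainly to its most downstream start in replicate 1. Dnmt1-203, whose start lies 7265 bases into the gene, held 34.0% of the Dnmt1 level in replicate 2 and 91.4% in replicate 1. The reads assigned to it were close in number, at 539.76 in replicate 2 and 547.54 in replicate 1. Replicate 2 had fewer reads in total, and the level of Dnmt1-203 was 6.92 TPM there against 4.44 TPM in replicate 1. Dnmt1-201, which starts 6909 bases into the gene, held 33.5% and 484.34 reads in replicate 2, and 8.64% and 47.46 reads in replicate 1. Dnmt1-202, from the farthest upstream start, held 32.5% and 459.9 reads in replicate 2. In replicate 1 it was estimated at 0. As posterior mean TPM, Dnmt1-202 held 32.4% in replicate 2 and 2.13% in replicate 1, and Dnmt1-203 held 34.3% and 88.3%, in the same order of libraries.

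The 3 Dnmt1 starts follow the order known for the oocyte, somatic and pachytene starts, but the annotation does not name them so. M21 gives 1620 residues for Dnmt1-201 and 1501 for both other transcripts. The transcript of 1620 residues thus held 33.5% of the level in replicate 2 and 8.64% in replicate 1. The GC content of the first exon was 51.3% for Dnmt1-202, 65.4% for Dnmt1-201 and 59.4% for Dnmt1-203. How far GC content enters the split was not tested.

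**Figure D2:**
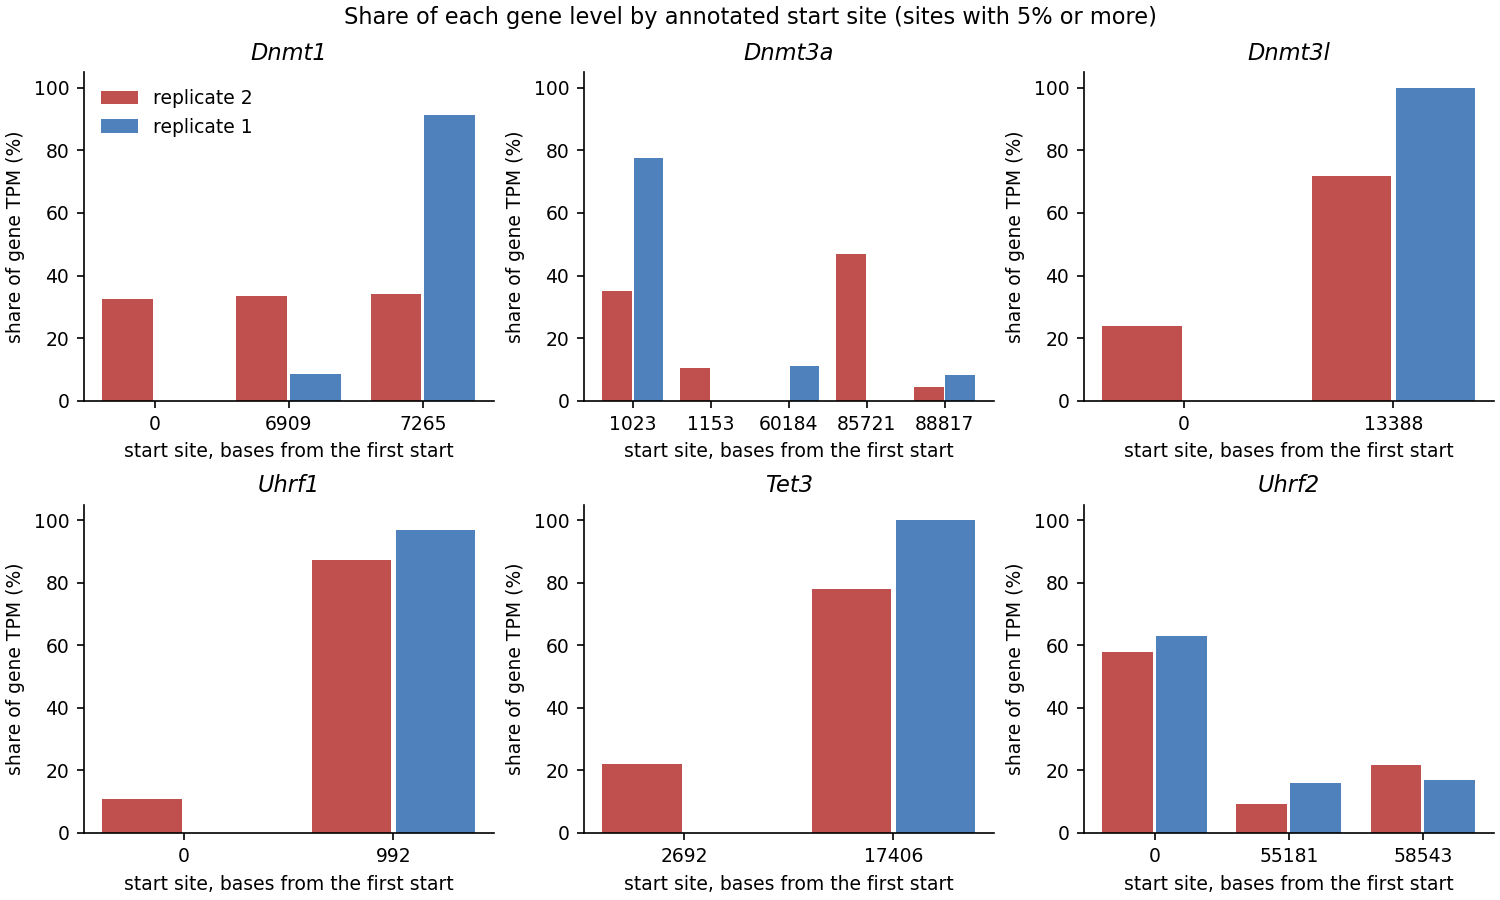
Percent of each gene's TPM by annotated start site (bars, replicate 2 left of replicate 1) for 6 genes, with the distance of the site from the farthest upstream annotated start on the horizontal axis; sites under 5% in both libraries are left out. In Dnmt1 the site at 7265 bases holds 34.0% in replicate 2 and 91.4% in replicate 1, and in Dnmt3a the site at 85721 bases holds 47.0% and 0%.

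On TPM, Dnmt3a had different leading transcripts in the libraries, Dnmt3a-205 in replicate 2 and Dnmt3a-201 in replicate 1. By reads Dnmt3a-201 led in both, with 244.81 reads in replicate 2, where Dnmt3a-205 had 61.88, and 292 reads in replicate 1. On posterior mean TPM Dnmt3a-201 also led in replicate 2, at 1.37 TPM against 1.30 TPM for Dnmt3a-205. The internal start 85721 bases into the gene, shared by Dnmt3a-203 and Dnmt3a-205, held 47.0% of the level and 123.06 reads in replicate 2. It was assigned 0 of 299 reads in replicate 1. By posterior mean TPM its share was 24.0% in replicate 2 and 3.48% in replicate 1. Both internal transcripts have an open reading frame of 689 residues, the short form, against 908 residues for Dnmt3a-201 and Dnmt3a-218. The 908 residue transcripts held 40.4% of the level (322.29 reads) in replicate 2 and 77.6% (292 reads) in replicate 1. As in Dnmt1, the reads of the form that led in replicate 1 were of similar number in libraries of unlike depth. Scaled for depth the 908 residue transcripts were higher in replicate 2, at 2.54 TPM against 1.42 TPM in replicate 1. The 689 residue transcripts were assigned reads in replicate 2 alone. The GC content of the first exon was 68.4% for Dnmt3a-203, 69.2% for Dnmt3a-205 and 86.8% for Dnmt3a-201. Its part in the split was not tested.

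All Dnmt3b reads in both libraries fell to 1 start, and its transcripts differ in their exons. Dnmt3b-209, with 839 residues, led in both and held 57.1% in replicate 2 and 92.98% in replicate 1. The transcripts of 776 residues, Dnmt3b-205 and Dnmt3b-206, held 32.2% in replicate 2 and 6.90% in replicate 1. These shares rest on 55.02 and 10 reads. The posterior mean did not show this shift. By that measure Dnmt3b-209 had 1.00 of the gene's 3.57 TPM in replicate 2 and 0.50 of 1.99 TPM in replicate 1. Dnmt3b-206 had 0.59 TPM in replicate 2 and 0.26 TPM in replicate 1, and Dnmt3b-205 had 0.26 and 0.15 TPM.

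Among the genes that bind hemimethylated DNA, Uhrf1 (ENSMUSG00000001228.10, chromosome 17, 56303321 to 56323486) had 43.21 TPM in replicate 2 and 17.28 TPM in replicate 1 (30.2 ± 18.3, SD, n = 2 technical libraries). Uhrf2 (ENSMUSG00000024817.9, chromosome 19, 30030513 to 30093722) had 12.75 TPM in replicate 2 and 20.67 TPM in replicate 1 (16.7 ± 5.60). These levels rest on 1887.86 and 1166 reads for Uhrf1 and on 398 and 1067 reads for Uhrf2, in the same order of libraries. Uhrf1 recruits Dnmt1 to newly replicated DNA, and Uhrf2 is its close relative with a less settled role in methylation. The libraries gave opposite orders. Uhrf1 was 3.39-fold Uhrf2 in replicate 2 (3.04 to 3.79) and 0.836-fold in replicate 1 (0.769 to 0.909), so the pair was not called.

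Part of the Uhrf2 level came from transcripts with a retained intron. These 8 transcripts held 49.1% of the Uhrf2 TPM in replicate 2 and 55.6% in replicate 1, or 99.81 and 400.09 reads. The only protein-coding Uhrf2 transcript, Uhrf2-201 of 803 residues, had 6.49 TPM in replicate 2 and 9.18 TPM in replicate 1. For protein-coding transcripts alone, Uhrf1 was above Uhrf2 in both libraries, with a mean log2 ratio of 1.79. In Dnmt3a, Dnmt3b, Dnmt3l and Uhrf1, transcripts with a retained intron held at most 3.34% of the TPM in either library. This limit does not hold on posterior mean TPM. There 1 such transcript, Dnmt3a-214, held 7.78% of Dnmt3a in replicate 2 and 11.0% in replicate 1. On the same measure the coding transcript Uhrf2-201 had 6.05 of 13.17 TPM in replicate 2 and 8.75 of 20.56 TPM in replicate 1. Dnmt1, Tet1, Tet2 and Tet3 have no annotated transcript of this type, so the contrast with Uhrf2 depends on the annotation, and its size on the measure.

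Uhrf1 came mainly from a cluster of starts 992 bases into the gene, which held 87.3% of its level in replicate 2 and 96.9% in replicate 1. Its leading transcript, Uhrf1-204 of 782 residues, had 28.73 TPM in replicate 2 and 16.73 TPM in replicate 1. The upstream start (Uhrf1-201) held 218.71 reads in replicate 2 and 0 in replicate 1. Dnmt1 was 0.471 times Uhrf1 in replicate 2 (0.440 to 0.505) and 0.281 times in replicate 1 (0.254 to 0.311), and this pair was called lower.

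The erasers were the lowest of the 9 genes. Tet3 (ENSMUSG00000034832.11, chromosome 6, 83362373 to 83459084, minus strand) had 2.01 TPM in replicate 2 and 0.80 TPM in replicate 1, from 265 and 185 reads (1.40 ± 0.856, SD, n = 2 technical libraries). Tet2 (ENSMUSG00000040943.8, chromosome 3, 133463679 to 133545139, minus strand) had 0.82 TPM in replicate 2 and 1.08 TPM in replicate 1, from 101 and 210 reads (0.950 ± 0.184). Tet1 (ENSMUSG00000047146.11, chromosome 10, 62804570 to 62908996, minus strand) had 0.42 TPM in replicate 2 and 0.37 TPM in replicate 1, from 41 and 96 reads (0.395 ± 0.0354). Their transcripts are long, so a low TPM still rests on 41 reads or more in each library.

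Tet1 was below Tet3 in both libraries, at 0.209-fold in replicate 2 (0.147 to 0.291) and 0.462-fold in replicate 1 (0.358 to 0.595). This pair was still called on posterior mean TPM, with a mean log2 ratio of -0.90 against -1.69 on TPM. It was also below Tet2, at 0.512-fold in replicate 2 (0.347 to 0.743) and 0.343-fold in replicate 1 (0.266 to 0.438). On posterior mean TPM the call against Tet2 was lost, with a mean log2 ratio of -0.17. Tet3 and Tet2 changed places. Tet3 was 2.45-fold Tet2 in replicate 2 (1.94 to 3.11) and 0.741-fold in replicate 1 (0.605 to 0.907).

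Tet2 has 1 transcript in the tables, of 1912 residues. By reads Tet1 was mainly Tet1-201, of 2007 residues, with 38.39 reads in replicate 2 and 94.29 reads in replicate 1. Its share was 12.5% in replicate 2 and 32.8% in replicate 1 by posterior mean TPM. The annotated start farther upstream, of Tet1-206, was assigned 0 reads in both, but held 8.33% of the posterior mean TPM in replicate 2 and 13.4% in replicate 1. Tet3-202, of 1668 residues, held 229.88 reads in replicate 2 and 185 reads in replicate 1. An upstream start of Tet3, that of Tet3-203 with 1803 residues, held 35.12 reads in replicate 2 and 0 in replicate 1. The posterior mean put it at 18.2% of the TPM in replicate 2 and 1.04% in replicate 1.

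Summed over their genes, the methyltransferases Dnmt1, Dnmt3a and Dnmt3b stood above the Tet genes by 9.21-fold in replicate 2 (8.28 to 10.3) and 3.75-fold in replicate 1 (3.37 to 4.18). Of the 10 pairs compared, 7 were called in the same direction in both libraries. Between neighbours in the order of mean TPM, 4 of 8 were called: Dnmt1 over Dnmt3l, Dnmt3l over Dnmt3a, Dnmt3b over Tet3 and Tet2 over Tet1. The neighbours Uhrf1 and Uhrf2, Uhrf2 and Dnmt1, Dnmt3a and Dnmt3b, and Tet3 and Tet2 were not called. On posterior mean TPM Dnmt1 over Dnmt3l and Tet2 over Tet1 were no longer called, each with a mean log2 ratio of 0.17.

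**Figure D3:**
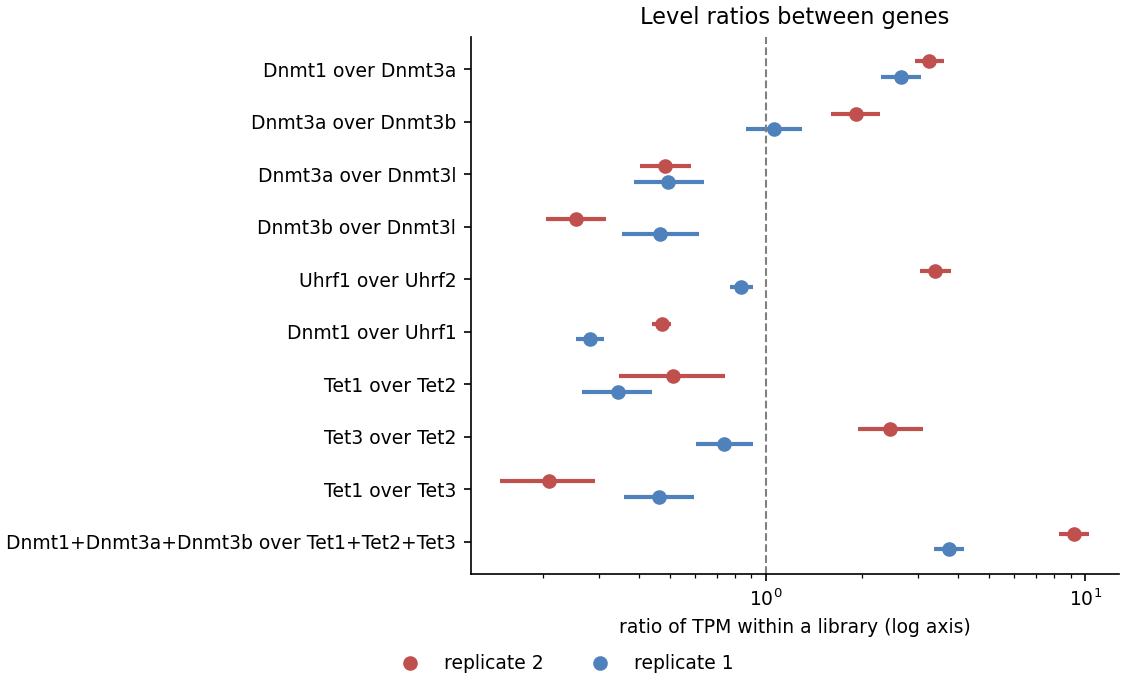
Ratio of TPM between genes within replicate 2 and within replicate 1 (log axis) for 10 pairs. Lines are exact 95% intervals for counting error and the dashed line marks equal levels. Uhrf1 over Uhrf2 and Tet3 over Tet2 fall on opposite sides of 1 in the libraries, and the summed methyltransferases lie above the summed Tet genes in both.

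Between the libraries, on TMM-scaled counts, Dnmt1, Dnmt3l and Uhrf1 were at least 2-fold higher in replicate 2 and Uhrf2 was at least 2-fold lower. These are 3 higher and 1 lower of 9 genes, against 32.5% higher and 23.9% lower of all 18589 genes tested. In either direction 4 of the 9 passed, against 56.4% of all genes tested, so a library difference of this size was common. Scaled by plain totals, 5 of the 9 were higher and 0 lower, against 36.4% and 15.9% of all genes tested. On the ratio of TPM it was again 5 and 0, against 35.8% and 16.1%. Under both, Dnmt3a (1.25 and 1.77) and Tet3 (1.15 and 1.33) passed and Uhrf2 (-0.79 and -0.70) did not, and the median of all genes was 0.29 and 0.26 in place of 0.01. With 1 library on each side this carries no p-value, and it compares libraries, not conditions. The log2 ratio of replicate 2 over replicate 1 was 1.67 for Dnmt1, 1.28 for Dnmt3l, 1.04 for Uhrf1, 0.97 for Dnmt3a, 0.87 for Tet3 and 0.60 for Dnmt3b. It was -0.70 for Tet2, -0.87 for Tet1 and -1.07 for Uhrf2. The median was 0.87 over the 9 genes and 0.01 over all genes tested.

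The sign of the ratio went with GC content. The 6 genes higher in replicate 2 had transcripts of 51.9 to 54.0% GC, and the 3 lower had 43.6% (Tet1), 45.4% (Tet2) and 47.2% (Uhrf2). Over all genes tested, the median log2 ratio was -1.18 at 40 to 45% GC, -0.39 at 45 to 50%, 0.96 at 50 to 55% and 2.96 at 55 to 60%. Relative to the median of genes of similar GC content, 0 of the 9 genes stayed past 2-fold, and their log2 differences ran from -0.63 (Dnmt3b) to 0.25 (Tet1). The share of all genes past 2-fold on this measure is not given, so the count cannot be set against other genes. The sign turned for Uhrf1 (-0.47), Dnmt3b (-0.63), Tet3 (-0.45), Tet2 (0.19) and Tet1. On the ratio of TPM, Tet1 was also turned round, at 0.18.

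**Figure D4:**
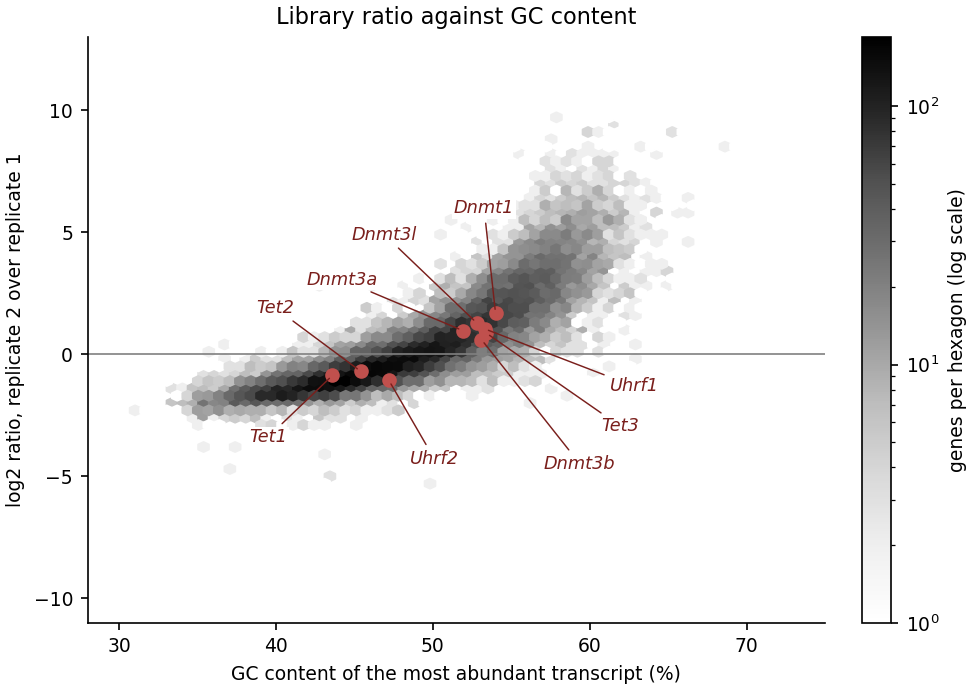
Log2 ratio of replicate 2 over replicate 1 on TMM-scaled counts against GC content of the most abundant transcript (percent). Grey hexagons are all genes tested with known GC content, shaded by gene number on a log scale, and red points the 9 genes. The 9 genes lie within the band of all genes, with the 3 of lowest GC content below 0.

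The counts of genes with the same leading transcript or start lay near the shares of all detected genes. The sets are not alike, since the genes counted here include Tet1 and Tet3, which did not pass the detection rule. Of the 8 genes with more than 1 annotated transcript, 6 had the same leading transcript in both libraries by TPM, all but Dnmt3a and Dnmt3l. The share over all detected genes with more than 1 transcript was 66.2%. By reads it was 7 of 8, all but Dnmt3l, against 74.4%, and by posterior mean TPM 6 of 8, all but Dnmt3l and Tet1, against 65.6%. Grouped by start, 7 of 8 had the same leading start by TPM, all but Dnmt3a, against 79.4%. By reads it was 8 of 8, against 85.6%, and by posterior mean TPM 7 of 8, all but Dnmt3a, against 79.6%. The same leading transcript does not mean the same share, as Dnmt1-203 held 34.0% in replicate 2 and 91.4% in replicate 1. The 9 genes have 68 annotated transcripts, and 21 of these were estimated above 0 in each library. A further 17 were above 0 only in replicate 2, and 5 only in replicate 1. No such split is given for transcripts of other genes, so the imbalance is not shown to be particular to these genes.

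Of 73 genes around the methylation cycle, in 7 lists, 55 were detected at 1 TPM in both libraries, where 54.6% of all protein-coding genes were. Between libraries, 18 of the 67 tested were at least 2-fold higher in replicate 2 and 11 were lower, against 32.5% and 23.9% of all genes tested, with a median log2 ratio of -0.07. The same shares are the background of the counts in each list. The lists were drawn up with earlier results of these data known and serve as context.

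Of the genes listed as readers of methylated CpG or their relatives, 7 of 8 were detected, all but Mbd3. Mbd3, a subunit of the NuRD complex, had 121.47 TPM in replicate 2 and 0.38 TPM in replicate 1, from 1943 and 6 reads, and its transcript has 62.7% GC. Mbd2, which binds methylated CpG, had 86.59 TPM in replicate 2 and 60.45 TPM in replicate 1. By the 2-fold rule 1 of the 8 was higher and 1 lower in replicate 2.

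Of the base excision and deamination genes, which can act after Tet oxidation, 9 of 15 were detected. The DNA ligase gene Lig3 had 155 TPM in replicate 2 and 67.65 TPM in replicate 1, and the poly(ADP-ribose) polymerase gene Parp1 had 55.78 and 18.61 TPM. By the 2-fold rule 5 of 13 tested were higher and 0 lower in replicate 2.

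Of the methyl donor genes, 9 of 12 were detected, with 5 of 11 tested higher and 1 lower in replicate 2. Mat2a, which makes S-adenosylmethionine, had 73.79 TPM in replicate 2 and 149.9 TPM in replicate 1. The adenosylhomocysteinase relative Ahcyl1 had 42.14 TPM in replicate 2 and 66.02 TPM in replicate 1.

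Of the genes that target or maintain methylation, 16 of 20 were detected, with 3 of 18 tested higher and 4 lower in replicate 2. The deubiquitinase gene Usp7, whose product binds Uhrf1 and Dnmt1, had 179.88 TPM in replicate 2 and 362.88 TPM in replicate 1. Trim28, a corepressor of KRAB zinc finger proteins, had 358.27 TPM in replicate 2 and 27.66 TPM in replicate 1, and its transcript has 59.6% GC. Both stood above all 9 genes in replicate 2, and in replicate 1 as well.

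The tissue label was checked against markers of testis cells and of the adjoining epididymis. The 6 elongating spermatid markers summed to 50352 TPM in replicate 2 and 9139 TPM in replicate 1, and the 8 spermatocyte markers to 5946 and 6028 TPM. All 14 were detected, as were 7 of 8 spermatogonial markers, which summed to 147 and 113 TPM. Of the somatic lists, Sertoli markers (6 of 7 detected) summed to 1196 TPM in replicate 2 and 986 TPM in replicate 1, Leydig markers (6 of 6) to 2124 and 469 TPM, and macrophage markers (2 of 4) to 24.1 and 33.0 TPM. Peritubular myoid markers (3 of 4) summed to 91.5 TPM in replicate 2 and 17.2 TPM in replicate 1, and endothelial markers (2 of 4) to 11.9 and 4.61 TPM. The 6 round spermatid markers, all detected, summed to 1593 and 2023 TPM. Single genes can carry such a sum. Insl3 alone had 1630.33 TPM in replicate 2 and 83.19 TPM in replicate 1. Among the elongating spermatid markers, Prm2 had 15927.66 TPM in replicate 2 and 45.39 TPM in replicate 1, whereas Smcp had 3820.91 and 3835.6 TPM. The median log2 ratio of the Leydig markers was -0.01, with 2 of 6 at least 2-fold higher in replicate 2 and 1 lower. Of the 8 spermatocyte markers 0 were higher by this rule and 4 lower, with a median of -0.87. Elongating spermatid markers had 4 of 6 higher and 0 lower (median 2.23), and round spermatid markers 1 higher and 1 lower of 6 (-0.62). Sertoli markers had 4 of 7 higher and 0 lower (1.53), and peritubular myoid markers 4 of 4 higher (1.78). Of all genes tested, 32.5% were higher and 23.9% lower. Of the epididymis markers 2 of 5 were detected, with a sum of 24.6 TPM in replicate 2 and 61.3 TPM in replicate 1. Crisp1 had 19.31 TPM in replicate 2 and 53.8 TPM in replicate 1, and Defb21 had 5.29 and 7.49 TPM. The other 3, Lcn5, Lcn8 and Adam28, were at 0 in both libraries. Their part in the levels of the methylation genes was not tested. The cell type in which each methylation gene was expressed was not tested.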

How the data were processed

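PolyA mRNA of adult testis was measured in 2 technical libraries of 1 animal. Per the deposited notes, each library was quantified separately from transcriptome alignments on mm10 with annotation M4. For the aligner and quantifier, the sources used here name none. Deposited by the authors are expected counts (estimated reads, not whole), TPM and FPKM per gene and transcript. The authors' deposited transcript tables give each transcript's percent of its gene. Posterior SDs, interval bounds and effective lengths were used as deposited scores, in their own units.

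Genes and transcripts were matched by identifier to GENCODE M21 (42462 of 43346 genes); 65 of the 68 transcripts of the 9 genes had the same length there. Expected counts were rounded and scaled by TMM in edgeR 4.0.16 (factors 1.1 for replicate 2 and 0.907 for replicate 1) over all genes, and ratios (0.5 added to counts) were read for 18589 genes whose mean count reached 10. The ratio step was tested on simulated counts. Starts within 100 bases were joined. GC content was that of the most abundant transcript, in 100 bins. The exact intervals cover counting error only and take the assigned reads and the length scaling as fixed. Without molecular identifiers reads may stem from the same molecule, so these intervals may be too narrow.

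Alternatives covered detection limits, FPKM, posterior means, unscaled counts, coding transcripts, each library alone, plain totals, DESeq2 1.42.0 size factors, count filters and ratio limits. Named genes were the 9 genes, Dnmt3c and Trdmt1, and the 2 highest of each other list by mean TPM. The genes and lists were chosen with earlier results of these data known. Of the genes that overlap the 9 on the opposite strand, those with values had at most 0.76 TPM; whether counting used strand is not stated. Alignment used BLAST 2.17.0. Scripts ran in R 4.3.3 and in Python 3.11.15 with scipy 1.17.1, pandas 2.3.3, numpy 2.4.6 and matplotlib 3.10.9.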

Additional observations from a re-analysis of the deposited data

How the results depend on the processing

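No paired analysis was possible because the series has 1 group. At a limit of 5 TPM, 2 of the 9 genes were detected in place of 6. At 0.5 TPM 8 were detected, and at 1 TPM in either library alone 7. No share of all genes is given for these counts. Without length scaling, the mean log2 ratio was 1.19 for Dnmt3a over Dnmt3b and for Uhrf1 over Uhrf2 (both then called). It turned to 1.69 for Dnmt3a over Dnmt3l (-1.69 for the inverse), 0.50 for Dnmt3b over Dnmt3l, -0.53 for Uhrf2 over Dnmt1 and -0.45 for Dnmt3b over Tet3. On posterior mean TPM it was 1.10 for Dnmt3a over Dnmt3b, now called, and -0.17 for Tet1 over Tet2, no longer called. For protein-coding transcripts it was 1.79 for Uhrf1 over Uhrf2, now called, and -0.37 for Uhrf2 over Dnmt1. With 1 library left out, it ran from -0.26 to 1.76 for Uhrf1 over Uhrf2, from -0.43 to 1.29 for Tet3 over Tet2, from 0.08 to 0.93 for Dnmt3a over Dnmt3b and from -0.68 to 2.09 for Uhrf2 over Dnmt1. Past 1.5-fold between libraries were 9 genes, past 3-fold 1, and relative to genes of similar GC content 0 past 2-fold, in place of 4. No share of all genes is given at these settings, so these counts describe the 9 genes alone. The same leading start by posterior mean TPM, a measure chosen after seeing the data, was found in 7 of 8 genes, as by TPM. The GC correction also turned the log2 library ratio to -0.63 for Dnmt3b, -0.47 for Uhrf1, -0.45 for Tet3, 0.25 for Tet1 and 0.19 for Tet2, and the ratio of TPM turned it to 0.18 for Tet1. The cause of these changes was not tested. Tet1 and Dnmt3l, with 41 and 83 reads in their thinner library, and all splits among starts are limited by depth.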

Other observations

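Among the partners of the Tet enzymes and the genes that supply their cofactor alpha-ketoglutarate, 8 of 11 were detected. Ddb1, an adaptor of the CRL4 ubiquitin ligase, had 152.81 TPM in replicate 2 and 48.98 TPM in replicate 1, and Dcaf1, a substrate receptor of that ligase, had 66.95 TPM in replicate 2 and 90.68 TPM in replicate 1. By the 2-fold rule 2 of 10 tested were higher and 3 lower in replicate 2, against 32.5% and 23.9% of all genes tested.

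All 5 genes of RNA adenine methylation and of related dioxygenases were detected. Fto, an RNA demethylase of the same cofactor class as the Tet enzymes, had 74.52 TPM in replicate 2 and 34.65 TPM in replicate 1. Alkbh5, another RNA demethylase, which is needed for male fertility in mice, had 19.77 TPM in replicate 2 and 17.91 TPM in replicate 1. Both stood above the 3 Tet genes in each library.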
